A study of Mus musculus with 12 samples.

Results

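The major urinary protein genes were followed through the livers of WT and *Ahr* HKO mice on a control or an ethanol diet. The members were the rows of the expression table whose symbol was *Mup1*, *Mup2*, *Mup3*, *Mup7*, *Mup10*, *Mup11*, *Mup12*, *Mup17*, *Mup20* or *Mup21*, which made 10 of 24532 genes. The table holds 21 rows with a *Mup* symbol and a number, and 1 further row, *Gm2083*, is described there as a major urinary protein. All 10 members passed the filter on low counts. Values came from 12 livers of male C57BL/6 mice in 4 groups of 3, named WT+con, WT+EtOH, *Ahr* HKO+con and *Ahr* HKO+EtOH. All mice carried *Ahr* alleles with loxP sites around exon 2. The *Ahr* HKO mice also carried Cre under the albumin promoter, which is active in hepatocytes, and the WT mice were littermates without Cre. Mice aged 10 to 12 weeks received either a control liquid diet or the Lieber-DeCarli liquid diet with ethanol, at 5% of the volume and 36% of the calories, for 5 weeks. Polyadenylated RNA was sequenced from both ends of each fragment with reads of 100 bases.

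Major urinary proteins (MUPs) are small secreted lipocalins, barrel-shaped proteins with a pocket for hydrophobic molecules. Hepatocytes of adult male mice make them in large amounts, and they pass through the blood into the urine, where they carry volatile pheromones and release them slowly into scent marks. Their transcription in liver is known to depend on pulsed growth hormone (GH), which acts through the GH receptor, JAK2 and STAT5B, and on thyroid hormone and glucocorticoids, and it is much higher in males than in females. MUP20, also called darcin, is itself a pheromone that females recognise.

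The genes lie in a single cluster on mouse chromosome 4, at chr4:59956804-62150863 of build GRCm38, in which GENCODE M21 lists 22 protein-coding *Mup* genes, 21 of them on the minus strand, and 26 *Mup* pseudogenes. All 10 members are on the minus strand, and the spans that follow are those of the RefSeq genes in the same build. *Mup7* lies at chr4:60066469-60070475, *Mup2* at chr4:60135913-60139977, *Mup1* at chr4:60498012-60501960, *Mup10* at chr4:60578260-60582276, *Mup11* at chr4:60658466-60662432, *Mup12* at chr4:60737381-60741416 and *Mup17* at chr4:61591929-61595865. At the far end lie *Mup20* at chr4:62011337-62054143, *Mup3* at chr4:62083476-62087317 and *Mup21* at chr4:62147832-62150841. The members fell into a near-identical and a distinct set by their coding sequences. *Mup1*, *Mup2*, *Mup7*, *Mup10*, *Mup11*, *Mup12* and *Mup17* were 98.3 to 99.6% identical to each other over the 21 pairs, with a median of 98.9%. *Mup3*, *Mup20* and *Mup21* were 82.3 to 91.3% identical to those 7 and 87.0 to 94.7% identical among themselves. A sequencing read therefore often fits several of the 7 genes. Of all windows of 100 bases in a transcript, the share found in no other gene's transcript was 2.7% for *Mup2*, 12.8% for *Mup1*, 12.9% for *Mup7*, 14.6% for *Mup10*, 16.5% for *Mup11*, 22.5% for *Mup12* and 40.6% for *Mup17*. The same share was 97.1% for *Mup3*, 95.5% for *Mup21* and 61.2% for *Mup20*, which shared windows with the pseudogene *Mup-ps19* alone. How reads that fit several genes were assigned is not given in the sources used here, so the values of the 7 near-identical genes are uncertain one by one. Their sum does not change when reads move among the 7. It can still gain or lose reads to *Mup* genes that are not members. *Mup2*, for example, shared most windows with *Mup14* and *Mup7* with *Mup15*. The values of *Mup3*, *Mup20* and *Mup21* depend less on that step.

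The promoters divided along the same line, and they are shown because 9 of these genes moved together in the livers. RefSeq promoters of GRCm38.p6 were matched by symbol for 7 members, all but *Mup1*, *Mup12* and *Mup20*. Each sequence below is 100 bases of the minus strand, read 5′ to 3′, and ends with the TATA box, which is in capitals. The windows lie at chr4:60139875-60139974 (*Mup2*), chr4:60582177-60582276 (*Mup10*), chr4:60662389-60662488 (*Mup11*), chr4:61595849-61595948 (*Mup17*), chr4:62087320-62087419 (*Mup3*) and chr4:62150841-62150940 (*Mup21*). The start used for a RefSeq promoter is not always the outer end of the gene's span, so the windows of *Mup2* and *Mup10* lie inside the spans given above, those of *Mup11*, *Mup17* and *Mup21* overlap them in part, and that of *Mup3* lies outside.
Mup2: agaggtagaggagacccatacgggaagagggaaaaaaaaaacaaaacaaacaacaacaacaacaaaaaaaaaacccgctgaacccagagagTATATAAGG
Mup10: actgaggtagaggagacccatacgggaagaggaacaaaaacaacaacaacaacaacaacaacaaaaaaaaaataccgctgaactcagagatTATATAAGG
Mup11: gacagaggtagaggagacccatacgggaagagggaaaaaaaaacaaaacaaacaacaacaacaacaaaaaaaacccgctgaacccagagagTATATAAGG
Mup17: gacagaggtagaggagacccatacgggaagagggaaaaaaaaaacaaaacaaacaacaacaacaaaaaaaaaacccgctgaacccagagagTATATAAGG
Mup3: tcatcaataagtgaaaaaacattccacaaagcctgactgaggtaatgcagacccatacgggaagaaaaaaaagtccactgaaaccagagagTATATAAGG
Mup21: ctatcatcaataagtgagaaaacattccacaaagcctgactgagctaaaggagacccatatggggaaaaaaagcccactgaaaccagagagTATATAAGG
*Mup11* and *Mup17* were 98.0% identical over these windows and *Mup2* and *Mup11* 94.2%. *Mup10* was 87.1 to 88.1% identical to those 3. *Mup3* and *Mup21* were 87.4% identical to each other but only 52.9 to 57.4% identical to the near-identical genes. The box TATATAAGG, a motif chosen after these sequences were seen, lay within the 250 bases before the RefSeq start of *Mup2*, *Mup10*, *Mup17* and *Mup3*, and in 0.3% of 32851 promoters of the same length. In *Mup11* and *Mup21* it crossed that start. These letters were not found in the *Mup7* promoter. On either strand of the same 250 bases, none of the 7 member promoters held the STAT motif TTCNNNGAA, found in 7.0% of all promoters, the AhR core GCGTG, found in 28.2%, the C/EBP motif TTGCNNAA, found in 9.6%, or the common TATA form TATAAA, found in 12.4%. The glucocorticoid receptor motif TGTTCT was found in *Mup3* and *Mup21* and in 16.1% of all promoters. These are matches of letters in a short window.

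Libraries held 46306518 to 74336255 reads counted on genes, and levels are given below as CPM, counts relative to library sizes scaled by the trimmed mean of M values (TMM). The lowest count of any member in any liver was 94, so no member was near the floor of 3 counts, which equals 0.0425 to 0.0676 CPM and covers counting error only. *Ahr* itself was at 18.3 ± 1.79 CPM in WT+con, 24.9 ± 5.02 in WT+EtOH, 56.7 ± 13.4 in *Ahr* HKO+con and 32.9 ± 8.55 in *Ahr* HKO+EtOH (mean ± SD, n = 3). Counts per gene cannot separate exon 2 from the rest of the gene, so this does not check the genotype, and groups are given as labelled. The 8 hepatocyte markers were detected in each group, and their sum was 72070 to 83010 CPM in WT+con, 84060 to 110700 in WT+EtOH, 67090 to 109500 in *Ahr* HKO+con and 97610 to 109400 in *Ahr* HKO+EtOH. The 9 markers of Kupffer cells and leukocytes summed to 218.4 to 266.2 CPM in WT+con, 191.9 to 446.9 in WT+EtOH, 187.6 to 546.1 in *Ahr* HKO+con and 128.1 to 155.7 in *Ahr* HKO+EtOH, the last of which lay below every other liver. Of these 9 markers 7 were called lower on ethanol in *Ahr* HKO, beside 11.7% of all tested genes. Between the genotypes on ethanol 0 of the 9 were called by edgeR and 5 by DESeq2, beside 1.06% and 7.44% of all genes. At an unadjusted *P* under 0.05 there were 7, beside 21.0% of all genes, and the median log2 fold change of the 9 was -0.95. The part of these markers in the *Mup* values of *Ahr* HKO+EtOH was not tested. Over the 12 livers the 6 markers of sinusoidal endothelium summed to 168.0 to 373.3 CPM, the 6 of stellate cells to 195.3 to 347.2 and the 5 of cholangiocytes to 37.05 to 476.0, and none of the markers of these cell types was at 0 across a group. In whole liver, fewer cells of a type and less RNA per cell cannot be told apart.

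The *Mup* genes were among the most abundant transcripts of the WT liver on the control diet, and they lost most of that abundance on ethanol. The 10 members summed to 69605, 54935 and 61552 CPM in the 3 WT+con livers and to 6079, 6064 and 10582 CPM in the 3 WT+EtOH livers. The *Ahr* HKO livers on the control diet held 33845, 37676 and 11754 CPM, and those on ethanol 27079, 53022 and 60701 CPM. The WT groups did not overlap, and every WT+EtOH liver was also below every *Ahr* HKO liver of either diet. The mean sum was 8.19-fold lower in WT+EtOH (7575 ± 2604 CPM) than in WT+con (62031 ± 7347 CPM, n = 3 each). It was 2.24-fold lower in *Ahr* HKO+con (27758 ± 13992 CPM) than in WT+con, again without overlap. On ethanol the order of the genotypes was the opposite, with the mean of *Ahr* HKO+EtOH (46934 ± 17618 CPM) 6.20-fold above that of WT+EtOH and no overlap. The 2 diets overlapped in *Ahr* HKO livers, where the mean on ethanol was 1.69 times that on the control diet. Of all reads counted on genes, the 10 members took 6.12 ± 0.751% in WT+con, 0.820 ± 0.282% in WT+EtOH, 2.80 ± 1.51% in *Ahr* HKO+con and 4.43 ± 1.63% in *Ahr* HKO+EtOH. With the 11 other *Mup* rows and *Gm2083* the shares were 11.8 ± 1.11%, 1.54 ± 0.601%, 5.43 ± 2.94% and 8.39 ± 2.72%. The mean CPM of that wider sum was 8.35-fold lower in WT+EtOH than in WT+con and 6.22-fold higher in *Ahr* HKO+EtOH than in WT+EtOH.

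**Figure D1:**
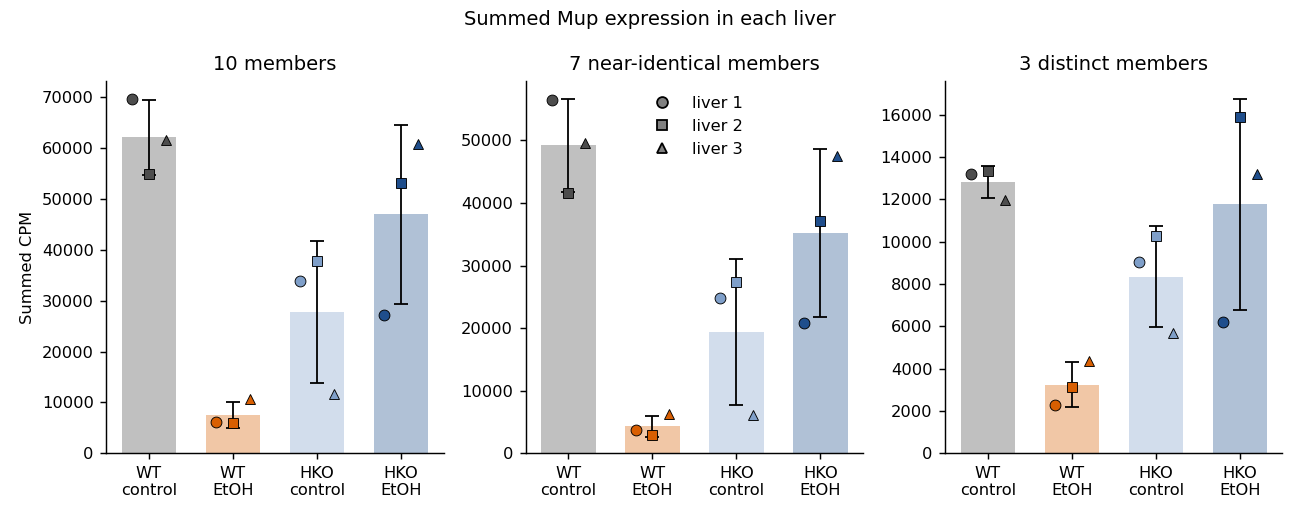
Summed CPM (linear axis from 0, own range in each panel) of the 10 members, of the 7 near-identical members and of the 3 distinct members in each of the 12 livers, with bars at the group mean, whiskers of 1 SD and a symbol per liver. The WT+EtOH livers, at 6064 to 10582 CPM for the 10 members, lie below all other livers, and the lowest *Ahr* HKO+con liver, at 11754 CPM, lies just above them.

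Both the near-identical and the distinct set were lower on ethanol in WT. The 7 near-identical members summed to 49192 ± 7428 CPM in WT+con and 4327 ± 1696 CPM in WT+EtOH, an 11.4-fold lower mean. The sum of *Mup3*, *Mup20* and *Mup21*, whose reads are least shared, was 12839 ± 764 CPM in WT+con and 3248 ± 1055 CPM in WT+EtOH, 3.95-fold lower. Both sums kept the WT groups apart, and both kept every *Ahr* HKO+EtOH liver above every WT+EtOH liver, with a mean 8.13-fold higher for the near-identical set and 3.63-fold higher for the distinct set. The difference in size between the sets was not tested.

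A single liver of *Ahr* HKO+con, the third, stood apart from its group. It was the lowest of the 3 for 9 of 10 members, with *Mup7* at 1486 CPM against 8037 and 11177 CPM and *Mup20* at 1481 CPM against 4951 and 5630 CPM. *Mup3* was the exception, at 4005 CPM between 3850 and 4386 CPM. The same liver was also the only 1 of the 6 control-diet livers with a level of *Cyp2b9*, a cytochrome P450 gene expressed mainly in female liver, which was counted at 33.7 CPM there and at 0 in the other 5. *Cux2*, a repressor gene expressed mainly in female liver, was at 5.91 CPM there and at 0 and 0.222 CPM in the others of its group. Its hepatocyte markers, at 109500 CPM, and its stellate cell markers, at 215.2 CPM, were the highest of its group. Its markers of Kupffer cells and leukocytes, at 187.6 CPM, of endothelium, at 241.7 CPM, and of cholangiocytes, at 44.52 CPM, were the lowest. The part of any of these in its *Mup* levels was not tested. Within *Ahr* HKO+EtOH the first liver was the lowest for 9 of 10 members, all but *Mup11*, and was far below the others for *Mup20*. Without the third *Ahr* HKO+con liver the log2 ratio of the family sum between *Ahr* HKO+con and WT+con was -0.79 instead of -1.16, and that between the diets in *Ahr* HKO was 0.39 instead of 0.76.

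Among the near-identical genes *Mup7* had the highest level per length in WT+con and the largest drop on ethanol. Its CPM were 23838, 13580.3 and 21144 in WT+con and 352, 203 and 615 in WT+EtOH. In *Ahr* HKO they were 8037, 11177 and 1486 on the control diet and 4259, 14108 and 18348 on ethanol. Even the lowest *Ahr* HKO+EtOH liver was well above the highest WT+EtOH liver. *Mup7* fell on ethanol in WT by 5.64 on the log2 scale (SE 0.50, adjusted *P* = 0.00212), a 50.0-fold lower mean. By mean FPKM, which is scaled to gene length, it ranked 2nd of all genes in WT+con, 188th in WT+EtOH, 10th in *Ahr* HKO+con and 5th in *Ahr* HKO+EtOH.

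*Mup1* ranked 7th of all genes by mean FPKM in WT+con and 92nd in WT+EtOH. Its CPM were 9769.9, 8686 and 8161 in WT+con and 610.2, 394 and 1069 in WT+EtOH, a log2 fold change of -3.67 (SE 0.37, adjusted *P* = 0.00323). The *Ahr* HKO livers held 4699, 4417 and 1253 CPM on the control diet and 6231, 6762 and 8431 CPM on ethanol. On ethanol the lowest *Ahr* HKO liver therefore had more than 5 times the *Mup1* level of the highest WT liver, and the *Ahr* HKO diets did not overlap either.

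*Mup12* and *Mup17* differed by about as much as *Mup1*. *Mup12* was at 6049.6, 5184 and 5083 CPM in WT+con and 282, 188 and 515 CPM in WT+EtOH, with a log2 fold change of -4.04 (SE 0.38, adjusted *P* = 0.00249). In *Ahr* HKO it was at 2761, 2671 and 623 CPM on the control diet and 2113, 3872 and 5077 CPM on ethanol. The third control-diet liver came close to the highest WT+EtOH liver for this gene. *Mup17*, which has the highest share of windows of its own in the near-identical set, was at 6624, 5465 and 6058 CPM in WT+con and 429, 249.95 and 896 CPM in WT+EtOH, with a log2 fold change of -3.52 (SE 0.46, adjusted *P* = 0.00700). Its *Ahr* HKO values were 3571, 3352 and 620 CPM on the control diet and 2197, 4036 and 5433 CPM on ethanol. Here the third control-diet *Ahr* HKO liver lay below the third WT+EtOH liver.

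*Mup10* and *Mup2* fell less far. *Mup10* was at 5425, 4606 and 5011 CPM in WT+con and 1059, 835 and 1714 CPM in WT+EtOH, with a log2 fold change of -2.05 (SE 0.27, adjusted *P* = 0.00762). In *Ahr* HKO it was at 3220.1, 3313 and 1347 CPM on the control diet and 3763, 4802 and 5704 CPM on ethanol, without overlap. *Mup2* was at 4701, 4046 and 4129 CPM in WT+con and 1064, 1049 and 1401 CPM in WT+EtOH, with a log2 fold change of -1.86 (SE 0.17, adjusted *P* = 0.00212). Its *Ahr* HKO livers held 2483, 2448 and 730.1 CPM on the control diet and 2278, 3563 and 4472 CPM on ethanol, and these overlapped. *Mup2* has 9 transcript entries in the deposited table and the lowest share of windows of its own among the 10 members, so its value rests most on how shared reads were assigned.

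*Mup11* was the exception in level and in direction. It was at 5.35, 4.61 and 4.804 CPM in WT+con and 19.1, 25.5 and 9.42 CPM in WT+EtOH, so it rose by 1.89 on the log2 scale (SE 0.34, adjusted *P* = 0.0197) while the other 9 members fell. It was at 8.51, 9.26 and 1.90 CPM in *Ahr* HKO+con and 8.50, 2.95 and 21.4 CPM in *Ahr* HKO+EtOH, which overlapped. Its mean FPKM was 5.08 ± 0.428 in WT+con, when *Mup7* stood at 18585 ± 5254. *Mup11* is 99.3% identical in coding sequence to *Mup2*, whose level per length in WT+con was 4557 ± 399 FPKM. It is 99.8% identical to *Mup18*, which is not a member and shares the most windows with it. *Mup18* was at 41.0 ± 4.07 CPM in WT+con and 18.1 ± 8.85 CPM in WT+EtOH. The part of shared reads in the *Mup11* value was not tested. The *Mup11* call was lost when any 1 of the 3 WT+con livers was left out, with an adjusted *P* of up to 0.0791, and in the fit of all 12 libraries.

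The 3 distinct genes fell as well. *Mup20* was at 5821, 7092 and 6321 CPM in WT+con and 976, 1228 and 1221 CPM in WT+EtOH, with a log2 fold change of -2.48 (SE 0.17) and the lowest adjusted *P* of the 10 members, 0.000979. In *Ahr* HKO it was at 4951, 5630 and 1481 CPM on the control diet and 1309.8, 8268 and 5651 CPM on ethanol. A liver of each *Ahr* HKO group thus held a level near that of the WT+EtOH livers while the others were near WT+con. *Mup3* was at 6932, 5959 and 5323 CPM in WT+con and 1249.9, 1836 and 3042 CPM in WT+EtOH, with a log2 fold change of -1.56 (SE 0.32, adjusted *P* = 0.0294), the smallest drop of the 9. Its *Ahr* HKO values of 3850, 4386 and 4005 CPM on the control diet had the smallest relative spread of any member there, and on ethanol they were 4750.4, 7280.4 and 7255 CPM. The *Mup3* call in WT was lost without any 1 WT+con liver or without the second WT+EtOH liver, with an adjusted *P* of up to 0.0947. *Mup21*, the least abundant of the 3, was at 439, 310.4 and 318 CPM in WT+con and 38.1, 55.6 and 99.2 CPM in WT+EtOH, with a log2 fold change of -2.46 (SE 0.35, adjusted *P* = 0.0102). In *Ahr* HKO it was at 265, 274 and 206 CPM on the control diet and 169, 328 and 309 CPM on ethanol.

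**Figure D2:**
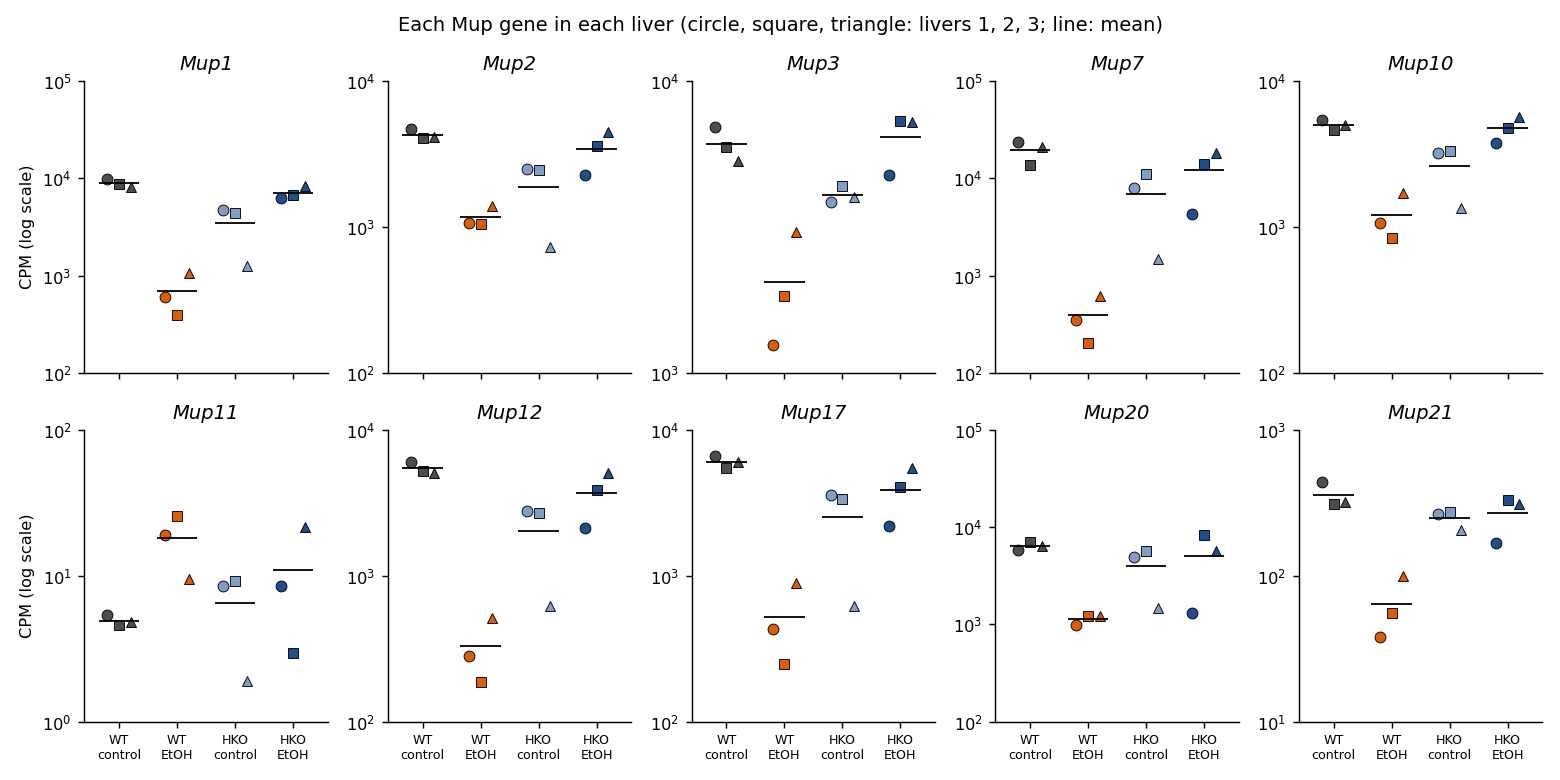
CPM (log axis, with its own range for each gene) of each of the 10 members in each of the 12 livers, by group, with a symbol per liver and a line at the mean. The WT+EtOH livers lie below every WT+con and every *Ahr* HKO+EtOH liver for 9 genes. For *Mup11* the WT+EtOH livers, at 9.42 to 25.5 CPM, lie above the WT+con livers, at 4.61 to 5.35 CPM, and overlap those of *Ahr* HKO+EtOH.

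The first comparison asked what ethanol did in livers with intact *Ahr*. In WT, 10 of 10 members passed an adjusted *P* of 0.05 with a fold change above 1.5, 9 of them lower and *Mup11* higher, where 6.76% of all tested genes passed, 3.4% lower and 3.36% higher. With library totals without TMM the same 10 were called, while the share of all calls that were higher went from 49.7% to 69.5%. The diets did not overlap for any of the 10, beside 32.9% of all genes. The median log2 fold change of the members was -2.47 and that of all tested genes 0.03. The 11 other *Mup* rows gave the same picture, with 8 lower, none higher and a median of -2.79. Both other WT+EtOH livers were below the third for 8 of the 9 members that fell. The 3 *Mup* rows without a call were *Mup4*, *Mup16* and *Mup18*, and of these *Mup4* was at most 1.35 CPM in any liver.

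The second comparison, *Ahr* HKO against WT on the control diet, asked what the loss of *Ahr* in hepatocytes did without ethanol. Levels were lower by 0.52 to 1.5 on the log2 scale for 9 members, but 0 of 10 were called by edgeR, against 19.9% of all tested genes, 10.1% lower and 9.77% higher. *Mup3*, with a log2 fold change of -0.57 (SE 0.17, adjusted *P* = 0.0388), passed on *P* but not on fold. At an unadjusted *P* under 0.05 there were 7 members, beside 42.1% of all genes, and the groups did not overlap for 9 members, beside 47.3% of all genes. DESeq2 called 4, *Mup1*, *Mup2*, *Mup10* and *Mup12*. Without the third *Ahr* HKO+con liver 7 members were called, *Mup1*, *Mup2*, *Mup7*, *Mup10*, *Mup12* and *Mup17* lower and *Mup11* higher, although the log2 fold changes of the 6 genes then ran from -0.62 to -1.02. With that liver left out, 18.6% of all genes were called.

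The third comparison set the genotypes side by side on ethanol. *Mup1*, *Mup2*, *Mup7*, *Mup10* and *Mup12* rose in *Ahr* HKO relative to WT, 5 of 10 members, where 1.06% of all tested genes were called and 0.684% were called higher. Of all calls 64.4% were higher, and with library totals without TMM 24.0%, while 6 members, these 5 and *Mup17*, were then called higher. *Mup7* had the largest difference, a log2 fold change of 4.98 (SE 0.67, adjusted *P* = 0.0352), followed by *Mup12* at 3.50 (SE 0.47, adjusted *P* = 0.0352) and *Mup1* at 3.37 (SE 0.37, adjusted *P* = 0.0200). *Mup10* differed by 1.99 (SE 0.29, adjusted *P* = 0.0383) and *Mup2* by 1.56 (SE 0.26, adjusted *P* = 0.0485). *Mup17*, *Mup20*, *Mup21* and *Mup3* were 1.66 to 2.90 higher on the log2 scale with no overlap between groups, and their adjusted *P* values were 0.0613 to 0.115. At an unadjusted *P* under 0.05 there were 9 members, beside 21.0% of all genes. The groups did not overlap for the same 9, beside 27.9% of all genes, and overlapped for *Mup11*. Of the other *Mup* rows 7 of 11 rose. The calls rested on few livers: 0 members were called without the first WT+EtOH liver, without the second *Ahr* HKO+EtOH liver or without the third, and 1 without the second WT+EtOH liver, while calls over all genes fell from 149 to between 7 and 32 in those fits. Without the third WT+EtOH liver 7 were called. This comparison shares the WT+EtOH livers with the first.

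The fourth comparison set the diets side by side within *Ahr* HKO. *Mup3* rose by 0.66 on the log2 scale (SE 0.21, adjusted *P* = 0.0491), and it was the only call among 10 members, where 22.0% of all tested genes were called and 10.3% were called higher. At an unadjusted *P* under 0.05 there were 2, *Mup3* and *Mup10*, beside 43.9% of all genes. The other 9 members were 0.12 to 1.05 higher on ethanol with adjusted *P* values of 0.0993 to 0.758, and 3 members, *Mup1*, *Mup3* and *Mup10*, did not overlap between diets, beside 49.8% of all genes. The *Mup3* call was lost when any 1 of the *Ahr* HKO+con livers was left out, and likewise without the second or the third *Ahr* HKO+EtOH liver.

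The response to ethanol was then compared between genotypes in a single fit of all 12 livers. The diet difference was higher in *Ahr* HKO than in WT for 9 of 10 members at an adjusted *P* under 0.05, where 22.3% of all genes passed and 11.2% in this direction. With library totals without TMM the share of all calls in this direction was 26.5% instead of 50.2%. The interaction was 6.47 on the log2 scale for *Mup7* (SE 1.04, adjusted *P* = 0.00216), 4.92 for *Mup12* (SE 0.77, adjusted *P* = 0.00189) and 4.73 for *Mup1* (SE 0.66, adjusted *P* = 0.00104). *Mup3*, *Mup20* and *Mup21* had 2.23 (SE 0.40), 2.83 (SE 0.81) and 2.58 (SE 0.47). *Mup11* had -1.14 (SE 0.94, adjusted *P* = 0.410) and was not called. Of the 11 other *Mup* rows 8 passed, also in the positive direction. The *Mup20* call was lost in 6 of 12 fits that left out a liver, the second or the third of WT+con, the first or the second of WT+EtOH and the second or the third of *Ahr* HKO+EtOH, with an adjusted *P* of up to 0.0660, and the other 8 calls held in all 12.

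**Figure D3:**
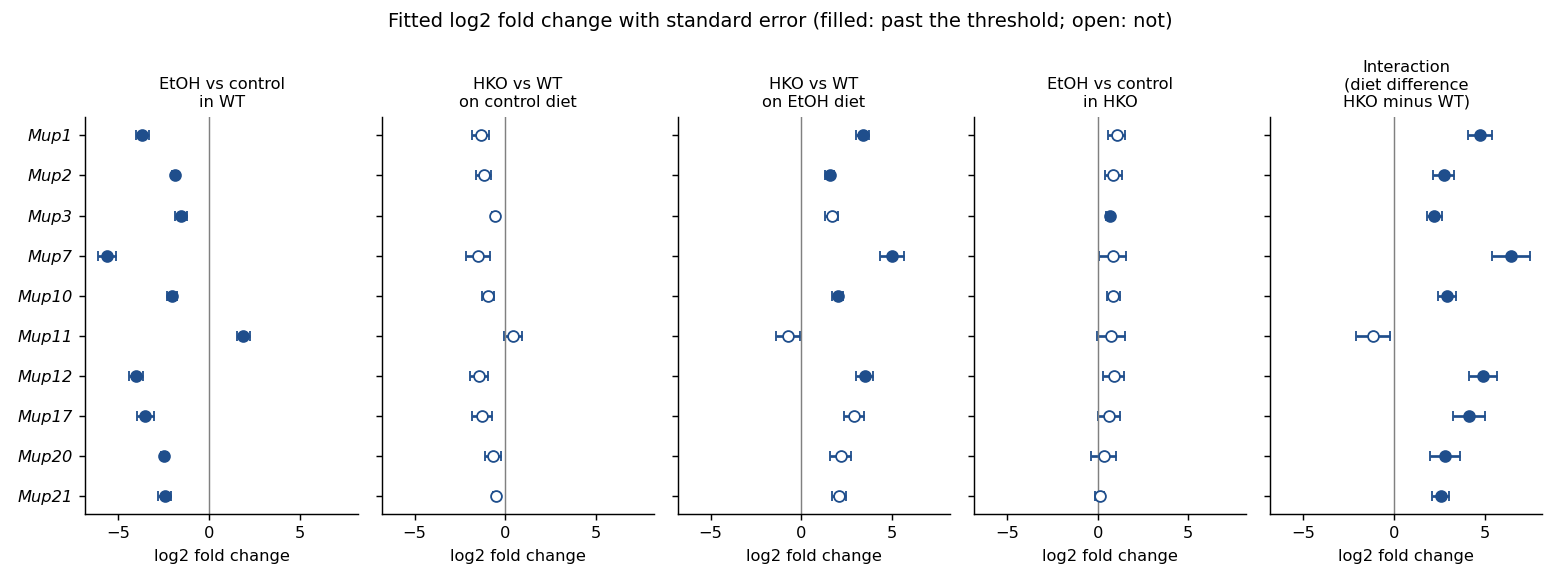
Fitted log2 fold change of each member (horizontal axis, shared by the 5 panels) with its standard error in the 4 comparisons of pairs of groups and in the interaction, with filled points for members past the threshold and open points for the rest. Filled points number 10, 0, 5, 1 and 9 from left to right, and *Mup11* lies opposite to the other 9 members in every panel but that of the diets in *Ahr* HKO.

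The make-up of the *Mup* transcripts shifted along with their amount. Of the summed FPKM of the 10 members, *Mup7* held 28.9 ± 5.34% in WT+con and 4.45 ± 1.28% in WT+EtOH. *Mup1* went from 14.4 ± 1.25% to 8.51 ± 2.02% and *Mup12* from 9.19 ± 0.582% to 4.22 ± 0.985%. The shares of the genes that fell least were larger on ethanol, 25.9 ± 5.08% against 9.98 ± 1.09% for *Mup3*, 17.4 ± 2.80% against 7.21 ± 0.354% for *Mup2* and 15.9 ± 1.93% against 8.48 ± 0.278% for *Mup10*. *Mup11* remained below 1% of the sum in each group mean. In *Ahr* HKO+EtOH *Mup7* again held the largest share, at 22.4 ± 7.10%, and *Mup3* held 14.6 ± 2.81%. In *Ahr* HKO+con the share of *Mup3* was 19.1 ± 12.9%, a wide spread that came with the third liver. These shares were not tested, and the division among the 7 near-identical genes carries the uncertainty of shared reads.

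**Figure D4:**
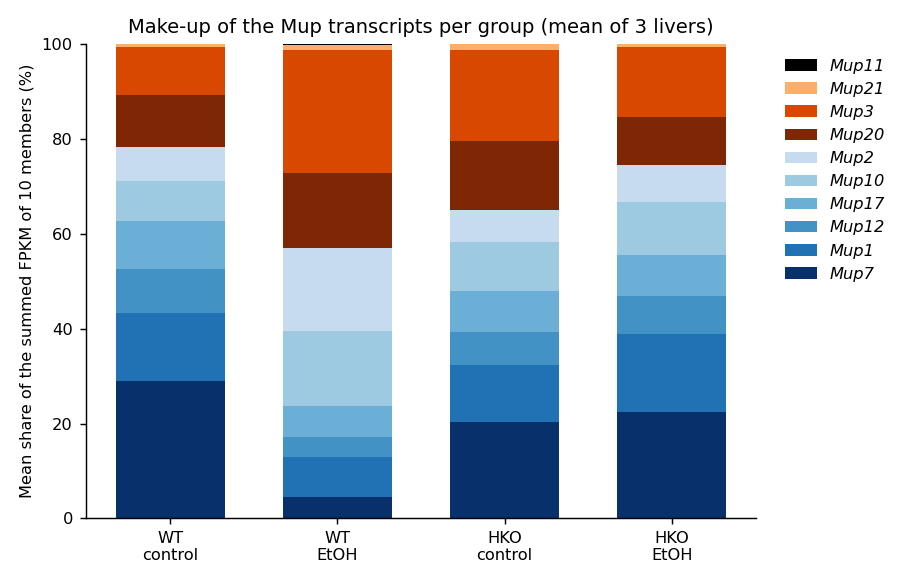
Mean share (percent, 3 livers per group) of each member in the summed FPKM of the 10 members, with near-identical genes in blue, *Mup11* in black and distinct genes in brown and orange. The *Mup7* band narrows from 28.9% in WT+con to 4.45% in WT+EtOH and is 20.3% and 22.4% in the *Ahr* HKO groups, and *Mup11* is too thin to see in most bars.

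Genes of GH signalling, through which *Mup* transcription is kept high in males, showed no call in WT. Of 8 genes tested, 0 were called on ethanol by edgeR and 0 by DESeq2, beside 6.76% and 10.3% of all genes. At an unadjusted *P* under 0.05 there was 1, *Stat5b*, beside 26.4% of all genes. The median log2 fold change of the 8 was -0.25. *Ghr*, the GH receptor, was at 431.7, 318.7 and 303.3 CPM in WT+con and 292.1, 156.6 and 319.9 CPM in WT+EtOH (log2 fold change -0.45, SE 0.27, adjusted *P* = 0.338). *Stat5b*, the transcription factor that GH activates, was at 85.6, 77.0 and 66.4 CPM and 67.6, 51.1 and 56.4 CPM (log2 fold change -0.38, SE 0.14, adjusted *P* = 0.131). Transcript levels do not show whether STAT5B was active. On the control diet *Igfals*, a GH-dependent partner of IGF1 in blood, and *Ghr* were lower in *Ahr* HKO than in WT, by log2 fold changes of -1.38 (SE 0.27, adjusted *P* = 0.00993) and -0.60 (SE 0.18, adjusted *P* = 0.0397). These 2 of 8 genes stand beside 19.9% of all tested genes called there, 10.1% lower. In *Ahr* HKO livers ethanol raised *Ghr* by 0.61 (SE 0.15, adjusted *P* = 0.0192) and *Igfals* by 1.48 (SE 0.28, adjusted *P* = 0.00939) on the log2 scale. *Socs2* and *Cish*, feedback inhibitors that GH induces, fell there by 2.89 (SE 0.45, adjusted *P* = 0.00536) and 2.48 (SE 0.75, adjusted *P* = 0.0422). Higher calls were thus 2 of 8, beside 10.3% of all genes, and lower calls 2 of 8, beside 11.7%. *Socs2* was at 18.6, 21.8 and 58.7 CPM in *Ahr* HKO+con and 4.01, 4.72 and 4.64 CPM in *Ahr* HKO+EtOH, and *Cish* at 4.31, 31.9 and 48.1 CPM and 5.54, 5.83 and 3.63 CPM, so the diets overlapped for *Cish* alone of this pair. These counts of 2 higher and 2 lower became 1 and 1 with the replicate block, with limma and without the second *Ahr* HKO+con, the first *Ahr* HKO+EtOH or the second *Ahr* HKO+EtOH liver. The count of higher calls was also 1 without TMM, with all 12 libraries in 1 fit or without the first *Ahr* HKO+con liver, and that of lower calls without the third liver of either group. The 2 calls between genotypes on the control diet became 1 with the block, with limma, with all 12 libraries in 1 fit and without the first *Ahr* HKO+con, the first WT+con or the second WT+con liver. Between the genotypes on ethanol 1 of the 8 was called, beside 1.06% of all genes. It was *Cish*, which was lower in *Ahr* HKO (log2 fold change -2.17, SE 0.23, adjusted *P* = 0.0181), with 19.1, 27.6 and 21.2 CPM in WT+EtOH. That call was lost in the fit of all 12 libraries and without the third *Ahr* HKO+EtOH liver. The interaction passed for *Igfals* at 1.52 (SE 0.33, adjusted *P* = 0.00896), *Ghr* at 1.07 (SE 0.33, adjusted *P* = 0.0402) and *Socs2* at -2.64 (SE 0.78, adjusted *P* = 0.0335). Positive calls were 2 of 8, beside 11.2% of all genes, and negative calls 1 of 8, beside 11.1%. When a liver was left out both counts stayed the same only without the first or the third WT+EtOH liver.

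Of 11 transcription factors that act on *Mup* or sex-biased liver genes, 0 were called on ethanol in WT by edgeR and 2 by DESeq2. Of all genes 6.76% and 10.3% were called, and the median log2 fold change of the 11 factors was 0.18. At an unadjusted *P* under 0.05 there were 4, with *Bcl6* and *Cux2* among them, beside 26.4% of all genes. *Bcl6*, a repressor of female-biased genes that is higher in male liver, was at 66.3, 43.3 and 11.1 CPM in WT+con and 8.82, 7.69 and 13.2 CPM in WT+EtOH (log2 fold change -2.01, SE 0.58, adjusted *P* = 0.0746). On ethanol it was 3.22 higher on the log2 scale in *Ahr* HKO than in WT (SE 0.21, adjusted *P* = 0.00312), with 92.5, 86.7 and 98.2 CPM in *Ahr* HKO+EtOH. In *Ahr* HKO+con it was at 74.1, 38.3 and 9.901 CPM, lowest in the third liver. *Cux2*, a female-biased repressor of male genes, was lower there, with a log2 fold change of -3.14 (SE 0.53, adjusted *P* = 0.0489), at 0.812 to 2.29 CPM in WT+EtOH and 0.139 to 0.293 CPM in *Ahr* HKO+EtOH. That *Cux2* call was lost with limma, with all 12 libraries in 1 fit, with scaling without the *Mup* genes, with no filter or a stricter filter on low counts, and without any 1 liver but the third WT+EtOH liver. Between the genotypes on ethanol 1 of 11 was called higher and 1 lower, beside 0.684% and 0.378% of all genes. *Thrb*, the main thyroid hormone receptor of liver, was 0.96 lower on the log2 scale in *Ahr* HKO than in WT on the control diet (SE 0.28, adjusted *P* = 0.0368), a call lost with the replicate block, without any 1 WT+con liver and without the second *Ahr* HKO+con liver. It rose on ethanol in *Ahr* HKO by 1.51 on the log2 scale (SE 0.28, adjusted *P* = 0.00853). This was the only call of the 11 there, beside 22.0% of all genes. *Hnf4a*, a nuclear receptor of hepatocytes, was higher in *Ahr* HKO on the control diet, with 1095.4, 1002.5 and 1236 CPM against 625.7, 552.6 and 529.4 CPM in WT+con (log2 fold change 0.97, SE 0.14, adjusted *P* = 0.00331). On that diet 1 of 11 was thus called lower and 1 higher, beside 10.1% and 9.77% of all genes. The interaction passed for *Bcl6* at 3.20 (SE 0.93, adjusted *P* = 0.0307) and *Thrb* at 1.68 (SE 0.34, adjusted *P* = 0.00616). That was 2 of 11, both positive, where 22.3% of all genes passed and 11.2% were positive. The count of 2 positive calls became 1 with limma and without the first WT+con, the second WT+con, the first WT+EtOH, the second WT+EtOH, the second *Ahr* HKO+con, the first *Ahr* HKO+EtOH or the third *Ahr* HKO+EtOH liver.

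Other genes known for higher expression in male than in female liver also fell on ethanol in WT. The lists of male-biased and female-biased genes were chosen with earlier results of these data known, so their counts are a description. Of 15 male-biased genes, 11 fell and none rose on ethanol in WT, with a median log2 fold change of -2.68. Leaving out a liver gave 8 to 12. With all livers 3.4% of all tested genes were called lower. *Cyp4a12b*, a fatty acid hydroxylase, had 119 to 131 CPM in 2 WT+con livers and 70.4 in the other, against 1.26 to 1.53 CPM in WT+EtOH. *Selenbp2*, a selenium-binding protein, had 1573 to 1739.9 CPM and 27.7 to 45.6 CPM. *Hsd3b5*, a steroid dehydrogenase of male liver, had 241 to 256 CPM in WT+con and 0, 0.143 and 0.605 CPM in WT+EtOH. On ethanol 4 male-biased genes were higher in *Ahr* HKO than in WT, *Hsd3b5*, *Cyp4a12b*, *Cyp4a12a* and *Susd4*, and 11 of 15 passed the interaction in the positive direction. Of all genes 0.684% were called higher and 11.2% passed the interaction in this direction. That count of 4 became 9 with DESeq2 or all 12 libraries in 1 fit and 2 to 7 when a liver was left out, with 2 without the second WT+EtOH, the second *Ahr* HKO+EtOH or the third *Ahr* HKO+EtOH liver. On the control diet 7 male-biased genes were lower and *Egfr*, the EGF receptor, was higher in *Ahr* HKO than in WT, and these counts were the same without the third *Ahr* HKO+con liver. With all livers 10.1% of all genes were called lower and 9.77% higher. Between the diets in *Ahr* HKO 4 male-biased genes rose, *Gstp1*, *Elovl3*, *Cyp2d9* and *Susd4*, and 2 fell, *Egfr* by 1.21 on the log2 scale (SE 0.29, adjusted *P* = 0.0202) and *Moxd1*, with 81.5, 7.25 and 0 CPM on the control diet and 0, 0.0617 and 0.631 CPM on ethanol (adjusted *P* = 0.0480). Of all genes 10.3% were called higher and 11.7% lower in that comparison. Of 17 tested female-biased genes, 8 rose and none fell on ethanol in WT, and 5 to 9 rose when a liver was left out. With all livers 3.36% of all genes were called higher. *Cyp2b9* was counted at 0 in every WT+con liver and at 793, 586 and 353 CPM in WT+EtOH. In *Ahr* HKO+EtOH it was at 265, 48.1 and 70.2 CPM. Between the diets in *Ahr* HKO 2 of the 17 were called higher, *Cyp2b13* and *Cyp3a44*, and *Atp6v0d2* lower, with a median of 1.06. On the control diet *Atp6v0d2* alone was called, higher in *Ahr* HKO. Between the genotypes on ethanol 0 were called by edgeR and 4 by DESeq2, beside 1.06% and 7.44% of all genes. Their median there was -1.69. The interaction passed for 4, all negative, beside 11.1% of all genes.

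Lipocalins such as the retinol carrier RBP4 and other secreted proteins are made by the same cells. Of 9 tested lipocalins outside the *Mup* cluster, 0 were called on ethanol in WT by edgeR or DESeq2 and 0 had an unadjusted *P* under 0.05, with a median log2 fold change of -0.16. Of all genes 6.76% were called by edgeR, 10.3% by DESeq2 and 26.4% had an unadjusted *P* under 0.05. *Rbp4* was at 2667 to 3121 CPM in WT+con and 3192 to 3760.4 CPM in WT+EtOH. Between the diets in *Ahr* HKO 2 lipocalins rose, *Ptgds* and *Rbp4*, and 3 fell, *Lcn2*, *Orm2* and *Orm1*. Of all genes 10.3% were called higher and 11.7% lower there. *Lcn2* was at 1201 ± 528 CPM in *Ahr* HKO+con, 17.8 ± 7.26 in *Ahr* HKO+EtOH and 140 ± 139 in WT+con. On the control diet *Ptgds* and *Apom* were lower in *Ahr* HKO than in WT, beside 10.1% of all genes. The interaction passed for *Ptgds* and *C8g*, positive, and *Lcn2*, negative, beside 22.3%. Of 12 abundant secreted proteins, *Apoa1*, the main protein of high-density lipoprotein, fell and none rose in WT, with a median of 0.08. Of all genes 3.4% were called lower. DESeq2 called 2, and 5 had an unadjusted *P* under 0.05. Between the diets in *Ahr* HKO *Ttr* rose and *Fgb* and *Hpx* fell. On the control diet *Fgb* was higher in *Ahr* HKO than in WT, at 19799 ± 3155 against 7714 ± 1784.5 CPM. The interaction passed for *Apoa1*, positive, and *Fgb*, negative. Between the genotypes on ethanol no gene of either list was called by edgeR, beside 1.06% of all genes. DESeq2 called 2 of the 9 lipocalins and 1 of the 12 secreted proteins there, beside 7.44% of all genes.

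**Figure D5:**
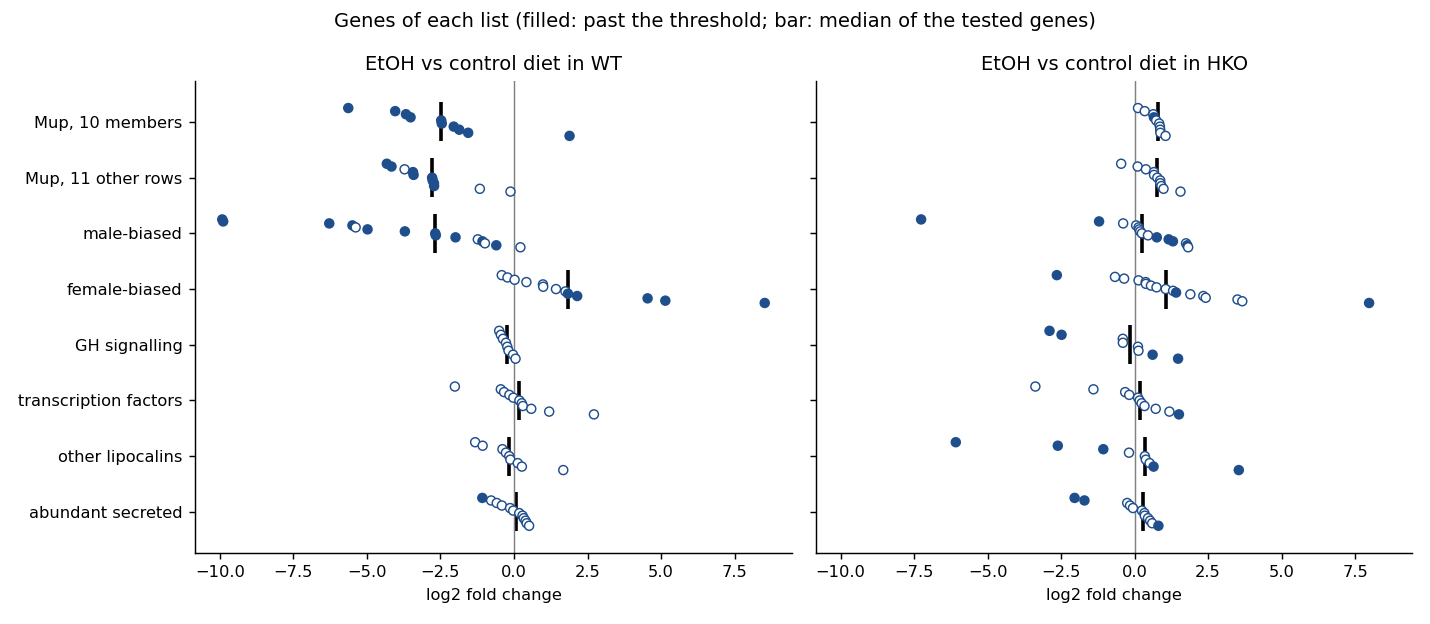
Log2 fold change on ethanol against the control diet in WT (left) and in *Ahr* HKO (right), a point per tested gene, for the members, the other *Mup* rows and 6 lists of liver genes, with filled points past the threshold and a bar at the median of all tested genes of the list. Genes with 0 counts in every liver of a group are not drawn, *Cyp2b9*, *Cyp2b13*, *Cyp2a4* and *Hao2* in WT. The *Mup* and male-biased medians are -2.47 and -2.68 on the left and 0.79 and 0.25 on the right, where 1 member and 4 male-biased genes are called higher and 2 male-biased genes, *Moxd1* and *Egfr*, lower.

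Levels of 9 members followed each other across the 12 livers. The Pearson correlation of log2 CPM between a member and the sum of the other 9 was 0.893 to 0.994 for these and -0.374 for *Mup11*, as a description into which the differences between groups and the shared reads both enter. Among tested genes without a *Mup* symbol, the 5 most like the family sum by the same measure were *Gm2083* (0.99), *Klhdc3* (0.959), *Elovl3* (0.949), *Sema5b* (0.943) and *Ces3a* (0.943). *Gm2083* is the row described as a major urinary protein, and it had 14632 to 16283 CPM in WT+con, 1189.8 to 2596 in WT+EtOH, 3552 to 9482 in *Ahr* HKO+con and 8418 to 14288 in *Ahr* HKO+EtOH. *Elovl3*, a fatty acid elongase of the male-biased list, had 192 to 235 CPM, 6.51 to 33.7 CPM, 42.1 to 94.5 CPM and 113 to 247 CPM in the same order of groups. The likeness of *Klhdc3* lay in its order, not its size, as its level ranged from 52.1 CPM in WT+EtOH to 67.8 CPM in *Ahr* HKO+EtOH. *Stat5b* and *Ghr* were at 0.261 and 0.489 by this measure.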

How the data were processed

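RNA-seq of 12 mouse livers was used, with groups taken from the sample titles. The authors deposited read counts per gene, without normalization, together with FPKM, which are scaled to gene length and library size, and TPM, which entered no result here. The submitters' processing notes name Trimmomatic 0.38, HISAT2 2.1.0, Bowtie2 2.3.4.1 and StringTie 1.3.4d without roles, and build mm10. The treatment of reads that fit several genes is not given in the sources used here.

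Of 24532 genes, 14038 passed filterByExpr with the 4 groups as its design. They were scaled with TMM factors of 0.925 to 1.157 and tested with the quasi-likelihood method of edgeR 4.0.16 in R 4.3.3. A comparison of 2 groups used the 6 libraries of those groups, and the interaction used 12. Each standard error (SE) was the absolute log2 fold change divided by the square root of the F statistic of its test. Adjustment followed Benjamini and Hochberg and covered all tested genes. A call needed an adjusted *P* under 0.05 and a fold change above 1.5, or for the interaction the adjusted *P* alone. Sums over members were compared by their values, without a test. The fit was tested on simulated data.

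Coding sequences, strands and windows of 100 bases came from GENCODE M21 on GRCm38, gene spans and promoters from RefSeq on GRCm38.p6, and members with a coding identity of 95% or more to another were called near-identical, in place of protein identity. Named genes were the 10 members, up to 4 called genes with the largest change of each list, any gene of GH signalling and of the transcription factors, and the 5 genes most like the family sum. *Rbp4* was named after its values were seen. The members and lists were chosen with earlier results of these data known. Alternatives were DESeq2 1.42.0, limma 3.58.1 on log2(FPKM + 1), also after quantile normalization, limma with a pseudocount of 0.1, other scalings and filters, a fit of all 12 libraries, a replicate block and leaving out each liver. Labels give each library as a liver of its own, and no pair of libraries had identical counts.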

Additional observations from a re-analysis of the deposited data

Results flagged for a closer look

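The diet difference was tested between genotypes with an interaction term, and 9 members passed at an adjusted *P* under 0.05. The difference on the log2 scale, *Ahr* HKO minus WT, was 6.472 for *Mup7*, 4.92 for *Mup12*, 4.729 for *Mup1*, 4.156 for *Mup17*, 2.917 for *Mup10*, 2.826 for *Mup20*, 2.739 for *Mup2*, 2.583 for *Mup21* and 2.228 for *Mup3*. In WT the levels of these 9 genes fell on ethanol, and in *Ahr* HKO they were 0.12 to 1.05 higher on the log2 scale, of which *Mup3* was called.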

How the results depend on the processing

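Direction held for the 10 members on ethanol in WT under every alternative, with 8 to 10 called when a liver was left out, 9 with the replicate block or all 12 libraries in 1 fit and 8 with limma on quantile-normalized log2(FPKM + 1). The interaction kept 9 calls with the block and 8 to 9 when a liver was left out. It gave 8 with limma on log2(FPKM + 1) or log2(FPKM + 0.1), where *Mup20* was lost. On quantile-normalized log2(FPKM + 1) it gave 7, where *Mup3* and *Mup20* were lost. *Ahr* HKO against WT on the control diet gave 0 calls, but 4 with DESeq2, 2 with upper-quartile scaling, 2 with all 12 libraries in 1 fit, 1 with the replicate block and 0 to 7 when a liver was left out. On ethanol the genotypes gave 5 calls, but 9 with DESeq2, 8 with the replicate block, 3 with limma on quantile-normalized log2(FPKM + 1), 9 at an unadjusted *P* under 0.05 with a fold above 2, and 0 to 7 when a liver was left out. In *Ahr* HKO the diets gave 1 call, but 3 with DESeq2, 2 with limma on quantile-normalized FPKM, 0 to 1 when a liver was left out, and 0 with library totals without TMM, no filter, at least 10 counts in every library, all 12 libraries in 1 fit, the replicate block, limma on log2(FPKM + 1) or log2(FPKM + 0.1). The cause was not tested, beyond the smaller number of livers in the fits that left 1 out.

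The log2 ratio of the family sum with *Mup3*, *Mup20* and *Mup21* alone was -1.983 instead of -3.034 for ethanol in WT, 1.858 instead of 2.631 for the genotypes on ethanol and 2.479 for the interaction. Signs turned for uncalled values of the diets in *Ahr* HKO alone. *Mup21* gave -0.007068 with limma on log2(FPKM + 1), -0.007225 on log2(FPKM + 0.1), -0.07374 on quantile-normalized values and -0.0491 to 0.363 when a liver was left out, lowest without the second *Ahr* HKO+EtOH liver. *Mup20* gave -0.03254 on quantile-normalized values, -0.04843 without the third *Ahr* HKO+con liver and -0.1964 to 0.7995 over all livers left out, and *Mup11* gave -0.1971, without the third *Ahr* HKO+EtOH liver, to 1.193. Library totals without TMM moved the median of all genes by 0.122 in WT, -0.196 between genotypes on ethanol and -0.201 in the interaction. With limma on log2(FPKM + 1) and log2(FPKM + 0.1), 76.0 and 73.9% of all calls were higher in WT, 25.8 and 21.4% between genotypes on ethanol and 23.0 and 23.1% in the interaction. Calls over all genes on ethanol were 949 in WT but 1440 with DESeq2, 503 with the block and 366 without the second WT+con liver, and between genotypes 149 but 1044 with DESeq2, 429 with all 12 libraries in 1 fit, 287 without TMM, 243 with the block, 260 with limma on log2(FPKM + 1) and 93 on quantile-normalized values. On log2(FPKM + 1) and its quantile-normalized form, they were 1718 and 1772 instead of 2788 between genotypes on the control diet and 1859 and 1760 instead of 3090 between diets in *Ahr* HKO.

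The sample titles number the livers of each group and do not say that equal numbers are pairs. Deviations of the 12 same-numbered pairs from their group means correlated at -0.0765 to 0.12, with 1 pair over 0.1, so the block shares only a number.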
